A study of Mus musculus with 14 samples.

Results

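The CCR4-NOT complex is the main cytoplasmic machine that shortens poly(A) tails, and 10 of its subunit genes were followed here: *Cnot1*, *Cnot2*, *Cnot3*, *Cnot4*, *Cnot6*, *Cnot6l*, *Cnot7*, *Cnot8*, *Cnot10* and *Cnot11*. They were chosen by symbol, as 10 of the 52459 genes in the count tables, and the rule used no measured value. The cells were E14Tg2a mESCs, a mouse embryonic stem cell line grown on gelatin in serum with LIF. They were either wild type (WT) or carried METTL14 R255K, in which CRISPR-Cas9 knock-in changed an arginine of the m6A writer subunit METTL14 to lysine. R255K cells came from single-colony isolation, so the effect of the substitution and of the clone cannot be told apart. RNA-seq of polyA RNA followed both genotypes after 0, 4 and 8 h of actinomycin D, which blocks transcription, at 5 μg/ml, with 1 library per genotype and time. MeRIP-seq used fragmented RNA and an anti-m6A antibody, with 2 IP and 2 input libraries per genotype and 1 peak list per genotype.

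CNOT1 is the scaffold of the complex. It binds a catalytic pair, made of a DEDD-type nuclease (CNOT7 or its paralogue CNOT8) and an EEP-type nuclease (CNOT6 or its paralogue CNOT6L), a CNOT2-CNOT3 module and a CNOT10-CNOT11 module. CNOT4 is a RING-type E3 ubiquitin ligase that is loosely tied to the mammalian complex. The m6A reader YTHDF2 recruits CCR4-NOT to methylated mRNAs through CNOT1, so the genes below encode machinery that m6A-marked transcripts are known to meet, and several of them carried m6A peaks themselves.

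The 6 libraries held between 13812160 and 18813640 counts. All 8 embryonic stem cell markers had at least 1 FPKM (counts per kilobase of exon, scaled to the summed counts of the library) in all 6 libraries, the lowest value being 6.58. Of 6 fibroblast markers, 4 were under 1 FPKM in all libraries, 1 was at least 1 FPKM in all of them, and the highest value was 4.56, with a summed level at 0 h of 1.64 FPKM in WT and 5.94 in R255K cells. Of 7 germ layer markers, 1 was under 1 FPKM and 0 were at least 1 FPKM in all libraries, the highest value was 13.4, and the sums were 20.3 and 9.29. The part of such cells in the results was not tested. At 0, 4 and 8 h the counts of *Mettl14* itself were 681, 376 and 232 for WT and 299, 280 and 209 for R255K, and gene counts cannot show the edited codon. With 1 library per point there was no replicate error and no test. The 95% intervals below cover counting error only, and a gene is called past the fold when it changed by more than 1.5-fold.

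Of the 10 genes, 6 carried a WT peak on an exon, where 57.4% of the 11869 genes tested (mean of at least 1 FPKM at 0 h) did, and 4 carried an R255K peak, where 43.6% did. The WT list held 8 such peaks. The sequences below are the parts of these peaks that hold the GGAC core of the m6A motif nearest to the summit within an exon of the gene, read from the mm10 (GRCm38) genome on the strand of the gene, 5′ to 3′, with GGAC in capitals. The first 4 come from WT peaks that no R255K peak overlapped, and the last 3 from WT peaks that an R255K peak overlapped. The *Cnot6* GGAC, at chr11:49712442-49712445, lies in the WT peak but outside the R255K peak, which spanned chr11:49712446-49712724.
Cnot1 exon 2, coding, chr8:95788665-95788693, minus strand: cagctacctggtGGACaatttaaccaaga
Cnot2 exon 16, 3′UTR, chr10:116485318-116485346, minus strand: ttcagcagccaaGGACatccatacccaag
Cnot7 exon 2, coding, chr8:40507518-40507546, minus strand: ataatccagctcGGACtgacctttatgaa
Cnot4 exon 10, coding, chr6:35051101-35051129, minus strand: tagtaatttcttGGACttgaatctcccgc
Cnot4 exon 11, coding, chr6:35046280-35046308, minus strand: tcattacaacaaGGACagcagcctacaag
Cnot10 exon 1, 5′UTR, chr9:114639999-114640027, minus strand: cccccgccggtaGGACtcaccaccagccc
Cnot6 exon 1, 5′UTR, chr11:49712429-49712457, minus strand: cagcagcgggcgGGACtggtatggtggtt

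GGAC lay within 100 bp of the summit on the gene's strand in 7 of the 8 WT peaks and in 3 of the 4 R255K peaks. Over the lists it did so in 79.4% of 13005 WT peaks and 82.9% of 8156 R255K peaks. These were only the peaks with the summit in an exon of genes on 1 strand. The 7 include a *Cnot1* peak at the 5′ end whose summit lay outside its exons. The GGAC of *Cnot4* exon 10 lay 216 bp from its summit and is the exception in WT. The exception in R255K cells is the *Cnot6* peak. A match of 4 letters marks no methylated base.

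The peak over the stop codon of *Cnot4* was the strongest on these genes. It spanned chr6:35046034-35046451 in exon 11, from coding sequence into the 3′UTR, where IP exceeded background 8.89-fold in WT (−log10 q 34.5). In R255K cells the same place was enriched 4.10-fold (−log10 q 6.32). A second WT peak on exon 10 of *Cnot4* (chr6:35050991-35051515, fold enrichment 2.64) had no R255K counterpart. After splicing, both peaks touched at position 1933 of the transcript, forming 1 stretch of 779 nt.

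The 3′UTR peak of *Cnot2* (chr10:116485213-116485489) was enriched 4.56-fold in WT (−log10 q 32.7) and lacked any R255K counterpart. *Cnot7* had a coding peak in exon 2 (chr8:40507375-40507683, fold enrichment 2.50) in WT only. *Cnot1* had a pair of weak WT peaks, at the 5′ end (chr8:95806906-95807367, fold enrichment 2.74) and across the start of its coding sequence in exon 2 (chr8:95788582-95788973, fold enrichment 2.10), and neither was listed in R255K cells. These also touched on the spliced transcript, at position 132. The peak at the 5′ end had its summit outside the exons of *Cnot1* and overlapped the antisense gene *4930513N10Rik*, so the RNA that gave it cannot be told from the list.

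The peaks found in both lists included those on the first exons of *Cnot10* and *Cnot6*. *Cnot10* had a fold enrichment of 2.94 in WT and 2.77 in R255K cells at chr9:114639840-114640050. *Cnot6* was the gene whose peak was higher in R255K cells, with a fold enrichment of 2.08 in WT (−log10 q 3.09) and 5.93 in R255K cells (−log10 q 28.8) at chr11:49712425-49712662. *Cnot3* had a first-exon peak in R255K cells only (chr7:3645274-3645654, fold enrichment 2.30, −log10 q 2.66), near the low end of that list. It was the 1 of the 4 R255K peaks without a WT peak, where 13.1% of the exonic R255K peaks had none. *Cnot6l*, *Cnot8* and *Cnot11* had no peak on an exon in either genotype.

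In all, 5 of the 8 WT peaks had no overlapping R255K peak (62.5%, 95% Wilson interval 30.6 to 86.3), and 47.9% of all exonic WT peaks had none. Peaks that touch after splicing can come from the same RNA fragments, and counted as stretches, 3 of 6 had no R255K peak. By place, 2 of the 3 WT peaks within 500 bp of a gene's 5′ end were kept, and 1 of the 5 farther away was kept. The corresponding losses over all exonic WT peaks were 39.4% and 48.8%. Most of the peaks were weak. The median fold enrichment of exonic WT peaks was 6.17, and on these genes the *Cnot4* exon 11 peak alone exceeded it. With peaks of fold enrichment of at least 4 alone, 2 WT peaks were left and 1 was lost.

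**Figure D1:**
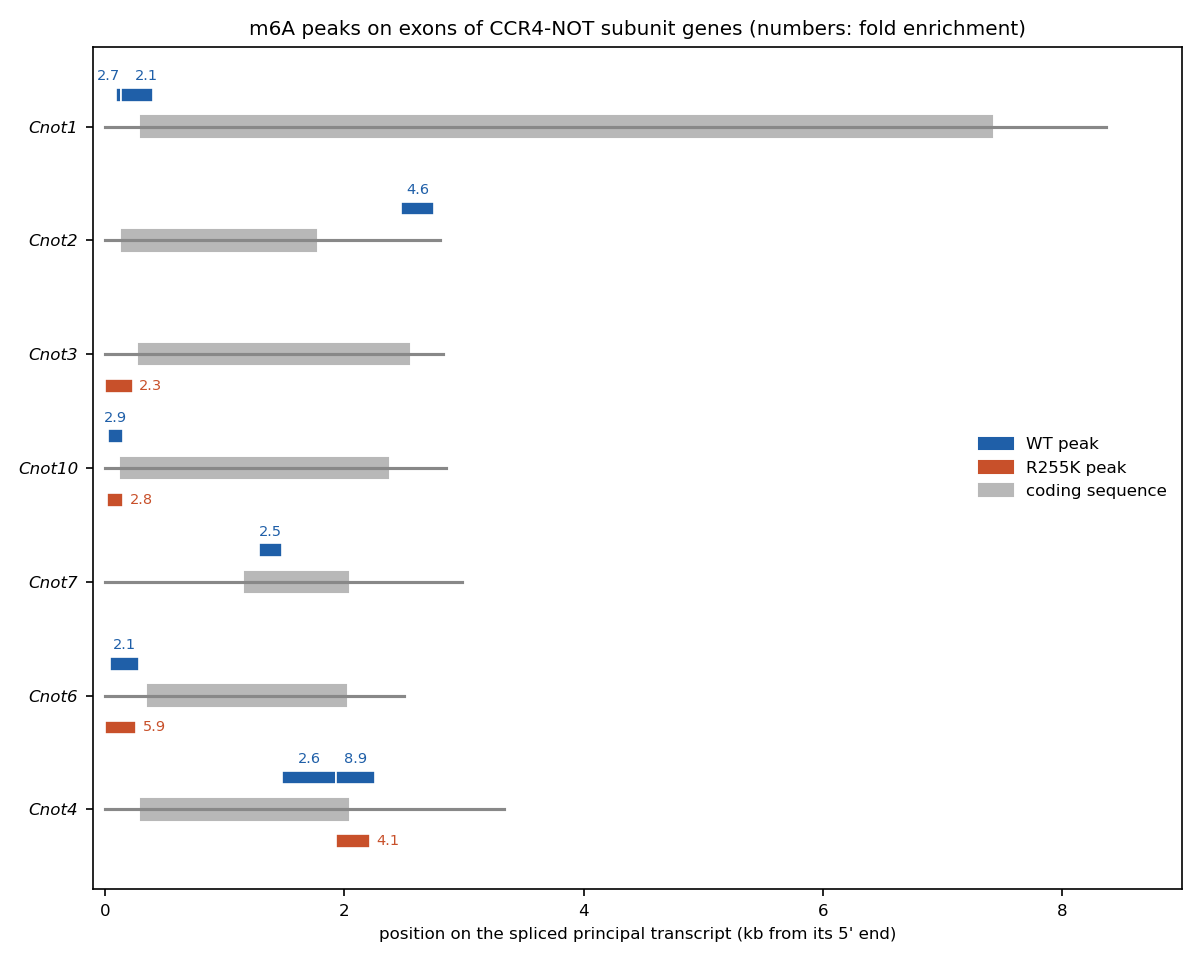
m6A peaks on the spliced principal transcripts of the 7 genes that had any on an exon. The x axis is the distance from the 5′ end of the transcript in kb, grey boxes are coding sequence, blue bars above and orange bars below each line are the exonic parts of WT and R255K peaks, and the numbers are fold enrichments. The *Cnot1*, *Cnot2* and *Cnot7* peaks appear in WT alone, and the *Cnot6* peak goes from 2.08 to 5.93.

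Per kilobase of annotated exon, *Cnot1* was the most abundant of the 10 transcripts in WT cells at 0 h and *Cnot8* in R255K cells. The length used joins all annotated exons of a gene, 17169 bp for *Cnot1* and 2636 bp for *Cnot8*. Their principal transcripts had 8364 and 2099 nt. The order of genes and the ratios between them depend on this choice, and other lengths were not tried. The WT order was *Cnot1* at 60.0 FPKM, *Cnot8* at 36.6, *Cnot11* at 29.5, then *Cnot2* (26.0), *Cnot10* (25.7) and *Cnot3* (25.6), whose intervals overlapped, then *Cnot6* at 15.1, *Cnot7* at 9.53, *Cnot4* at 4.72 and *Cnot6l* at 1.66. In R255K cells the order began with *Cnot8* at 52.4 FPKM, followed by *Cnot1* at 33.8 and *Cnot11* at 32.0, whose intervals overlapped. Then came *Cnot3* at 22.8, *Cnot2* at 19.95, *Cnot10* at 17.95, *Cnot6* (10.3) and *Cnot7* (9.86), whose intervals overlapped, *Cnot4* at 3.39 and *Cnot6l* at 1.20. In both genotypes each catalytic pair thus had a major and a minor paralogue. *Cnot8* exceeded *Cnot7*, with a *Cnot7* to *Cnot8* ratio of 0.260 (0.240 to 0.282) in WT and 0.188 (0.174 to 0.204) in R255K cells. *Cnot6* exceeded *Cnot6l* by 9.08-fold (8.04 to 10.3) in WT and 8.61-fold (7.38 to 10.0) in R255K cells.

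Before the trend on GC content given below was removed, the scaffold transcript differed most between genotypes. *Cnot1* had 17958 counts in WT and 9084 in R255K cells at 0 h, a log2 ratio of FPKM + 1 of −0.81 (95% interval −0.84 to −0.77), or 0.571-fold. It was the only one of the 10 past 1.5-fold, so 1 was lower, where 15.7% of the genes tested were, and 0 were higher, where 17.0% were. With DESeq2 size factors 3 were lower (*Cnot1*, *Cnot10* and *Cnot6*), where 18.2% of genes were, and 3 with scaling to ribosomal protein genes, where 20.9% were. The other negative log2 ratios were −0.51 for *Cnot6*, −0.49 for *Cnot10*, −0.38 for *Cnot4*, −0.37 for *Cnot2*, −0.27 for *Cnot6l* and −0.16 for *Cnot3*. *Cnot7* (0.04) and *Cnot11* (0.11) lay near 0, and *Cnot8* had 0.50 (0.41 to 0.59). Of 6 alternatives, 3 put *Cnot7* and 2 put *Cnot11* below 0, and none did so for *Cnot8*, though the one without an FPKM filter cannot change a gene's own ratio. In bulk RNA, fewer cells that express a gene and less RNA per cell cannot be told apart. The median over the 10 genes was −0.32, against 0.05 over the genes tested.

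Over all genes tested, such ratios differed by base composition and on chromosome 11. *Cnot1*, *Cnot2*, *Cnot7*, *Cnot6*, *Cnot6l* and *Cnot4* had an exon GC content of 38.6 to 42.4%, and the other 4 genes 48.8 to 53.0%. Over all genes tested the median log2 ratio was −0.39 in the 2900 genes under 45% GC and 0.16 in the 8969 others. With the trend on GC removed, the median of the 10 genes was 0.08, *Cnot1* had −0.42 and was not past the fold, and *Cnot7* had 0.65. The lowest of the 10 was then *Cnot10* at −0.52, and *Cnot3* had −0.32. The log2 ratios of *Cnot2* (0.036), *Cnot4* (0.18), *Cnot6* (0.13) and *Cnot6l* (0.39) were then above 0, and that of *Cnot11* (−0.023) below it. *Cnot8* and *Cnot6* lie on chromosome 11, where the median log2 ratio over 984 genes was 0.53, and 0.46 with the trend removed. *Cnot8* had 0.50, and 0.39 with the trend removed, while *Cnot6* had −0.51 and 0.13. The part of GC content and of chromosome 11 in these ratios was not tested.

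**Figure D2:**
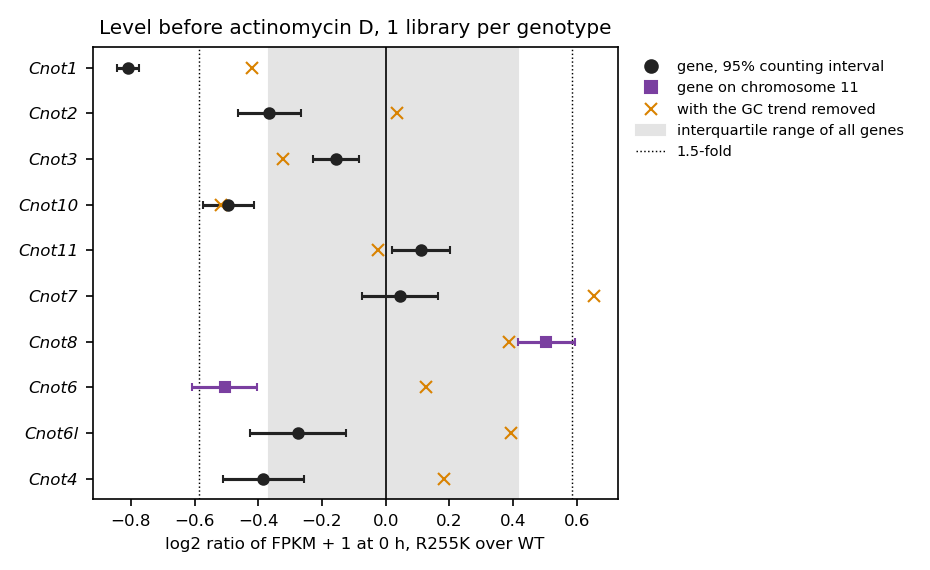
Level before actinomycin D in R255K over WT cells for the 10 genes. The x axis is the log2 ratio of FPKM + 1 (1 library per genotype), points have 95% counting intervals, squares mark chromosome 11, crosses give the ratio with the GC trend removed, the grey band is the interquartile range of all genes tested and dotted lines mark 1.5-fold. *Cnot1* lies at −0.81 and at −0.42 with the trend removed, and *Cnot8* at 0.50.

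After transcription was blocked, the subunit transcripts spread over a wide range in WT cells, from near loss of *Cnot6l* and *Cnot4* to a rising share of *Cnot10*. Values are FPKM at 0, 4 and 8 h. FPKM is a share of the library, so a transcript that outlasts the mean rises. The share left is FPKM at 4 or 8 h as a percent of that at 0 h.

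*Cnot4* fell from 4.72 to 0.46 and 0.17 FPKM, leaving 9.83% at 4 h and 3.61% at 8 h. *Cnot6l* fell from 1.66 to 0.36 and 0.05 FPKM (299, 56 and 7 counts), leaving 2.95% at 8 h (1.40 to 6.25). Their shares left at 8 h were below those of all but 2.28% and 1.43% of the genes tested. Their half-lives were the shortest of the 10, at 1.39 h for *Cnot4* and 1.69 h for *Cnot6l*.

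*Cnot2*, of the CNOT2-CNOT3 module, fell from 26.0 to 7.89 and 3.62 FPKM, leaving 13.9% at 8 h. Its partner *Cnot3* had 25.6, 25.7 and 23.8 FPKM, leaving 92.9%. The transcripts of this module, whose intervals overlapped at 0 h in WT, stood 6.56-fold (5.68 to 7.57) apart in FPKM at 8 h. Such ratios rest on exon lengths of 4076 bp for *Cnot2* and 7129 bp for *Cnot3*, whose principal transcripts had 2800 and 2822 nt. In R255K cells *Cnot3* was 1.14-fold (1.07 to 1.22) *Cnot2* at 0 h and 4.07-fold (3.64 to 4.55) at 8 h. In the CNOT10-CNOT11 module, *Cnot11* fell from 29.5 to 21.6 and 11.6 FPKM (39.1% left) while *Cnot10* had 25.7, 36.0 and 39.5 FPKM (154%).

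Among the nucleases, *Cnot8* fell from 36.6 to 18.1 and 7.80 FPKM (21.3% left), faster than *Cnot7*, with 9.53, 8.03 and 4.09 FPKM (42.9%). The *Cnot7* to *Cnot8* ratio was 0.260 at 0 h and 0.525 (0.448 to 0.615) at 8 h. *Cnot6* had 15.1, 13.6 and 10.8 FPKM (71.8%), and its ratio to *Cnot6l* was 9.08 at 0 h and 221 (105 to 464) at 8 h. The scaffold *Cnot1* had 60.0, 56.9 and 33.7 FPKM, so that 94.8% was left at 4 h and 56.1% at 8 h. Ratios between genes of the same library do not depend on how libraries are scaled, but they do depend on the gene lengths used. The fold by which such a ratio changed from 0 to 8 h depends on neither.

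Taking the 10 genes, 7 were lower past 1.5-fold at 8 h in WT (*Cnot1*, *Cnot2*, *Cnot4*, *Cnot6l*, *Cnot7*, *Cnot8* and *Cnot11*), where 50.4% of genes were, and 1 was higher (*Cnot10*), where 19.1% were. Their median share left was 41.0%, against 65.8% over the genes tested. It was 67.1% with DESeq2 size factors, 24.9% with scaling to ribosomal protein genes and 13.7% with scaling to *Gapdh*, where all genes had 108%, 39.9% and 22.02%.

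**Figure D3:**
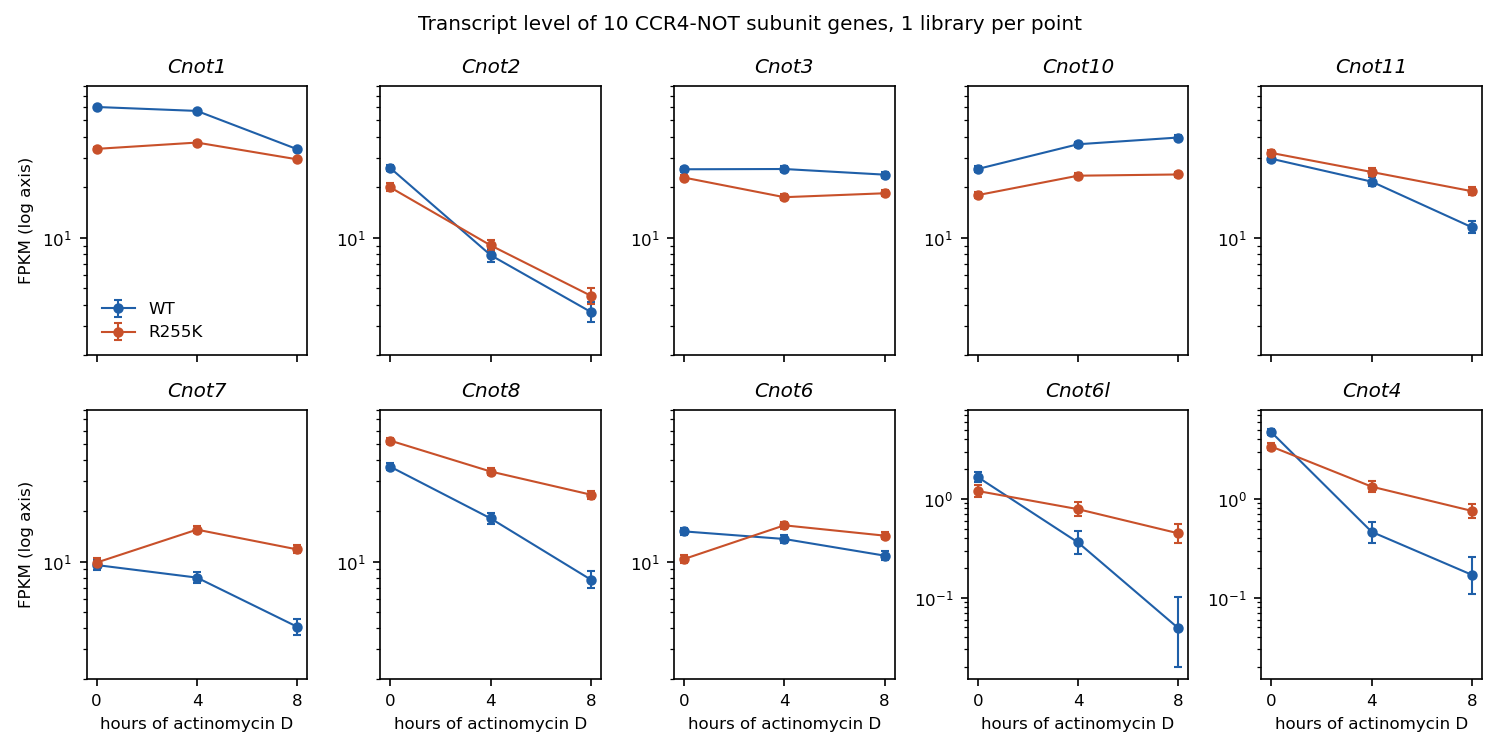
FPKM of the 10 genes after 0, 4 and 8 h of actinomycin D in WT (blue) and R255K (orange) cells. The x axis is hours and the y axis FPKM on a log axis, which reaches lower for *Cnot6l* and *Cnot4*, each point is 1 library and bars are exact 95% Poisson intervals. *Cnot6l* goes from 1.66 to 0.05 FPKM in WT and from 1.20 to 0.45 in R255K cells, and the lines of *Cnot10* stay apart without crossing.

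The same order from fast to slow did not hold in R255K cells. *Cnot4* fell from 3.39 to 1.33 and 0.76 FPKM, leaving 22.3% at 8 h, and *Cnot2* fell from 19.95 to 9.02 and 4.53 FPKM, leaving 22.7%. *Cnot6l* had 1.20, 0.79 and 0.45 FPKM (194, 151 and 87 counts), leaving 37.3%. *Cnot8* had 52.4, 34.3 and 24.98 FPKM, leaving 47.7%. Thus *Cnot2* was level with *Cnot4* in these cells, with overlapping intervals (20.1 to 25.5 and 18.5 to 26.9).

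*Cnot11* had 32.0, 24.6 and 18.9 FPKM (59.2% left), *Cnot3* had 22.8, 17.5 and 18.4 (80.7%) and *Cnot1* had 33.8, 36.9 and 29.3 (86.6%). *Cnot7* had 9.86, 15.5 and 11.8 FPKM (120%), *Cnot10* had 17.95, 23.4 and 23.8 (133%) and *Cnot6* had 10.3, 16.4 and 14.3 (138%). These last 3 were above their 0 h share of the library. Of the 10 genes, 5 were lower past 1.5-fold at 8 h, where 32.0% of genes were, and 0 were higher, where 7.39% were. The median share left was 69.9%, against 92.4% over the genes tested. With DESeq2 size factors it was 81.1%, with scaling to ribosomal protein genes 60.3% and with scaling to *Gapdh* 14.85%. All genes then had 107%, 79.7% and 19.6%.

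The paralogue ratio of the DEDD-type pair differed between genotypes at 0 h and overlapped at 8 h, and that of the EEP-type pair did the opposite. *Cnot7* to *Cnot8* went from 0.188 at 0 h to 0.451 at 4 h and 0.473 (0.437 to 0.511) at 8 h, and the 8 h interval overlapped that of WT. *Cnot6* to *Cnot6l* went from 8.61 at 0 h to 20.9 at 4 h and 31.8 (25.6 to 39.4) at 8 h, below the WT interval.

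Of the 10 genes, 8 kept a larger share at 8 h in R255K than in WT cells by more than 1.5-fold, where 44.5% of genes did, and 0 kept a smaller one, where 9.29% did. Across the genes tested the log2 difference had a median of 0.42, and for the 10 genes it was 0.82. Scaling with TMM factors (weighted trimmed means of the log ratios between libraries) brought the median of all genes to −0.01, and then 4 of the 10 were higher (*Cnot4*, *Cnot6l*, *Cnot7* and *Cnot8*) and 2 were lower (*Cnot3* and *Cnot10*), where 32.5% and 27.0% of all genes were. The order of the 10 differences is the same under any scaling of the libraries.

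*Cnot6l*, an EEP-type nuclease, had the largest difference, with 2.95% left in WT and 37.3% in R255K cells, a log2 difference of 3.66 (95% interval 2.52 to 4.80) or 12.6-fold. *Cnot4*, the ubiquitin ligase, followed with 3.61% and 22.3%, a log2 difference of 2.63 (1.97 to 3.29) or 6.19-fold. Larger than those of 99.0% and 94.8% of the genes tested, these differences were past 1.5-fold under all 8 alternatives tried. There they ranged from 1.59 to 4.17 for *Cnot6l* and from 0.63 to 3.14 for *Cnot4*. The alternative without an FPKM filter cannot change a gene's own value. *Cnot6l* rests on 7 counts in the WT 8 h library. At 4 h, where it had 56, its log2 difference was 1.59 (1.07 to 2.10).

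The DEDD-type nucleases came next. *Cnot7* had a log2 difference of 1.48 (1.26 to 1.70) or 2.79-fold, and *Cnot8* one of 1.16 (0.96 to 1.37) or 2.24-fold. *Cnot7* was past the fold under 7 and *Cnot8* under 6 of the 8 alternatives, the unfiltered one included. *Cnot6* had 0.94 (0.78 to 1.10), and 0.02 with the GC trend removed. On chromosome 11, which holds *Cnot6* and *Cnot8*, the median log2 difference was 0.29 over 982 genes.

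Before the GC trend was removed, the structural subunits had smaller differences or differences of the other sign. *Cnot2* had a log2 difference of 0.70 (0.43 to 0.97), *Cnot1* one of 0.63 (0.57 to 0.68) and *Cnot11* one of 0.60 (0.43 to 0.77), the last a 1.51-fold difference just past the threshold. Scaled to *Gapdh*, whose own counts in WT were 995, 242 and 2357, those of *Cnot1* (−0.029) and *Cnot11* (−0.058) were below 0. *Cnot3* had −0.20 (−0.31 to −0.09) and *Cnot10* had −0.21 (−0.32 to −0.10), each above 0 when libraries were scaled to ribosomal protein genes (0.31 and 0.30). Within both modules 1 member of the pair kept more in R255K cells relative to the other, *Cnot2* over *Cnot3* and *Cnot11* over *Cnot10*, whatever the scaling.

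The 6 genes of low GC content had a median log2 difference of 1.21 and the other 4 of 0.20. Over all genes tested the medians were 0.97 under 45% GC and 0.27 above it. With the GC trend removed, the 10 genes had a median of 0.42, equal to that of all genes at the digits given, and 5 were higher past 1.5-fold, where 44.0% of all genes were. These were *Cnot6l* (2.68), *Cnot4* (1.84), *Cnot8* (1.34), *Cnot11* (0.81) and *Cnot7* (0.61). The structural *Cnot11* thus lay above the nucleases *Cnot7* and *Cnot6* (0.02). *Cnot2* (0.24), *Cnot1* (0.18) and *Cnot3* (0.04) also lay above *Cnot6*, and *Cnot10* (−0.18) lay below it. The part of GC content in the differences was not tested.

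**Figure D4:**
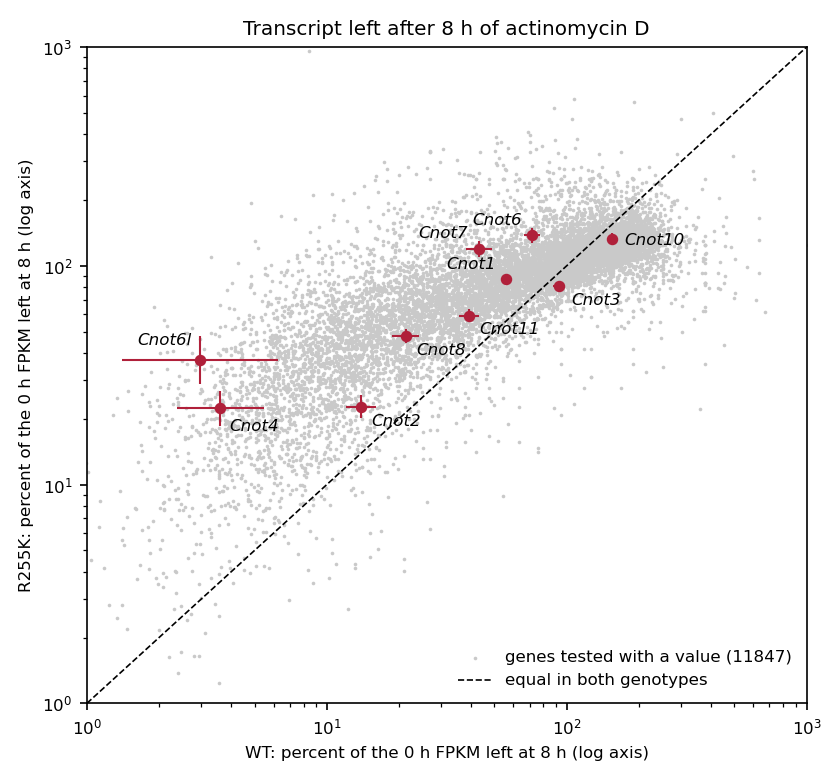
Percent of the 0 h FPKM left after 8 h of actinomycin D in WT (x axis) and R255K cells (y axis), both on log axes, for the 10 genes (red, with 95% counting intervals) and all 11847 genes with a value (grey, 14 outside the axes). The dashed line marks equal shares. *Cnot3* and *Cnot10* lie below the line and the other 8 genes above it, with *Cnot6l* (2.95 and 37.3%) and *Cnot4* (3.61 and 22.3%) farthest from it, and under scaling to ribosomal protein genes all 10 would lie above it.

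Half-lives, taken as ln 2 over the mean of the decay rates from 4 and 8 h, existed in both genotypes for 6 of the 10 genes. They went from 1.69 h in WT to 6.05 h in R255K cells for *Cnot6l* (ratio 3.58, 2.54 to 5.05), from 1.39 to 3.29 h for *Cnot4* (2.36, 2.05 to 2.73) and from 3.74 to 6.99 h for *Cnot8* (1.87, 1.64 to 2.13). *Cnot11* went from 7.09 to 10.6 h (1.497, 1.21 to 1.85) and *Cnot2* from 2.55 to 3.61 h (1.42, 1.28 to 1.57), both under 1.5-fold. Scaled to *Gapdh*, the ratios were 1.08 for *Cnot6l*, 1.04 for *Cnot4*, 0.339 for *Cnot8*, 0.487 for *Cnot2* and 0.0338 for *Cnot11*. Under that scaling their WT shares at 4 h were 77.0%, 34.7%, 174%, 107% and 258%, in the same order. With *Gapdh* scaling, *Cnot8*, *Cnot2* and *Cnot11* thus stood above their 0 h level at 4 h, a course that a half-life cannot describe. *Gapdh* itself had 995, 242 and 2357 counts in WT at 0, 4 and 8 h. Under every other scaling tried, these 3 transcripts were lower at 4 h than at 0 h in WT, and lower again at 8 h. The ratio of *Cnot11* was also under 1 with TMM factors (0.958) and DESeq2 size factors (0.941). *Cnot3* was nearly flat, so that its half-lives, 167 h (WT) and 14.7 h (R255K), gave a ratio of 0.0882 with a wide interval (0.0115 to 0.678), and of 1.15 under scaling to ribosomal protein genes. Over 1.5 were 3 of the 6, where 68.8% of the genes with a value were, and under 1/1.5 was 1, where 5.78% were. The count over 1.5 was 6 of 7 with ribosomal protein genes (81.4% of all genes), 0 of 5 with *Gapdh* (2.29%) and 5 of 7 from 8 h alone (75.5%). The other 4 genes have no ratio because their rate was not above 0 in at least 1 genotype.

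By 8 h the levels had moved apart from those at 0 h. *Cnot8* stood at 7.80 FPKM in WT and 24.98 in R255K cells, and *Cnot7* at 4.09 and 11.8. *Cnot1*, at 60.0 against 33.8 FPKM before treatment, stood at 33.7 and 29.3. *Cnot10* differed more at 8 h than at 0 h, with 39.5 FPKM in WT and 23.8 in R255K cells.

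The shares left were set beside those of all tested genes of the same peak class. In WT cells, tested genes with a lost WT peak had a median of 34.4% left at 8 h, those whose WT peaks were all kept 31.7%, and those without any WT peak 120%. *Cnot6l*, *Cnot8* and *Cnot11*, with no peak on an exon in either list, had 2.95%, 21.3% and 39.1% left. The 4 genes of the 10 without a WT peak, *Cnot3* included, had a median log2 difference in share left of 0.88, against −0.11 for the 5062 tested genes without one. The 4 with a lost WT peak (*Cnot1*, *Cnot2*, *Cnot4* and *Cnot7*) had a median of 1.09, against 0.97 for such genes in all. The 2 whose WT peaks were all kept (*Cnot6* and *Cnot10*) had a median share left of 113% in WT and a median log2 difference of 0.36, against 0.87 for such genes in all. *Cnot6l* was the least abundant of the 10, at 1.66 FPKM, and an exon without a listed peak may still be methylated.

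The 3′UTR of *Cnot6l* was the longest of the 10. In the principal GENCODE transcript it measured 6847 nt, against a median of 963.5 nt over 10404 coding genes tested, and held 28 copies of ATTTA, the core of AU-rich elements, counted on the transcript strand with overlaps allowed. The median gene had 1, and 65.8% of genes had any. *Cnot11* had 6 copies in 1623 nt, *Cnot4* and *Cnot7* had 4, *Cnot6* and *Cnot8* had 3 and *Cnot2* had 2. *Cnot1* and *Cnot3* had 1, and *Cnot10*, the transcript whose share rose most in WT, had 0. Within the 10, the shares left did not follow these counts throughout. *Cnot2* kept 13.9% and *Cnot11* 39.1% at 8 h in WT. Across the tested genes the median share left at 8 h in WT was 94.9% with no ATTTA, 55.1% with 1 to 4 and 29.4% with 5 or more, and in R255K cells it was 100.1%, 87.5% and 84.9%. A longer 3′UTR holds more copies by length alone, and a match is not a site in use.

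Some exons overlapped other genes, and whether reads were counted by strand is not given in the sources used here. *Leng1* covered 433 bp of *Cnot3* exons on the opposite strand, *Zdhhc2* 247 bp of *Cnot7*, *5330438D12Rik* 232 bp of *Cnot2* and *4930513N10Rik* 132 bp of *Cnot1*. At most this was 6.07% of the exon length of a gene.

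A list of 48 other gene symbols of deadenylation, decapping, the exosome and microRNA silencing was set beside the subunits. Of these, 47 were in the count tables and 46 passed the FPKM minimum. In R255K against WT cells at 8 h, 24 of the 46 kept a larger share by more than 1.5-fold (44.5% of all genes) and 0 a smaller one (9.29%), and their median log2 difference was 0.67. At 0 h, 2 were higher (17.0% of all genes) and 9 lower (15.7%) in R255K cells, with a median log2 ratio of −0.09. The largest differences in share left were those of *Noct* (nocturnin, of the same nuclease family as CNOT6) at 3.64, of *Pde12*, a phosphodiesterase that removes poly(A) in mitochondria, at 3.56, and of *Tnrc6b*, a microRNA silencing factor that binds CNOT1, at 2.87. The remaining core subunit in that list, *Cnot9*, had 54.5, 50.8 and 34.4 FPKM in WT and 53.4, 46.0 and 47.7 in R255K cells, a log2 difference of 0.50 (0.39 to 0.61).

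The genes nearest to the median profile of the 10 subunits over the 6 libraries were *Helb*, *Plekha5* and *Sepsecs*. Their root mean square distance, on log2(FPKM + 1) centred on each gene's own mean, was 0.0642, 0.0664 and 0.0687, and that of the 10 genes themselves was 0.136 to 0.703. *Helb* had 27.9, 19.4 and 11.6 FPKM in WT and 23.5, 21.3 and 16.7 in R255K cells.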

How the data were processed

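In all 14 samples the authors removed rRNA reads with bowtie2 2.2.6, mapped what was left to mm10 using HISAT2 and filtered with Picard 2.16.0 and SAMtools 0.1.09. The counts per gene of the 6 actinomycin D libraries were deposited without normalization, and the counting tool is not given in the sources used here. MACS2 peaks of IP over input were deposited as 1 list per genotype, and how libraries were combined is not given in the sources used here. The fold enrichment, a ratio over local background, and the −log10 q are as the authors deposited them. The read depth behind the lists is unknown.

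FPKM were computed from the counts, exon lengths and summed counts. Log2 ratios at 0 h used a pseudocount of 1 FPKM, a floor of 3 counts was applied after 0 h, and genes with no count at 0 h had no share left. A WT peak sharing 1 bp or more with an R255K peak counted as kept. Peaks were placed on GENCODE vM21 (principal transcripts by APPRIS, then coding length) with bedtools 2.31.1 and pysam 0.24.0. The GC trend was a lowess curve of span 0.3 on exon GC content. Intervals used the delta method on Poisson counts. No test was made, since each genotype and time had 1 library and a fit over times would need an assumed shape of decay. The half-lives assume exponential decay, which was not tested. Python 3.11.15, pandas 2.3.3, numpy 2.4.6, scipy 1.17.1, statsmodels 0.14.6 and matplotlib 3.10.9 were used. TMM and DESeq2 size factors came from edgeR 4.0.16 and DESeq2 1.42.0 in R 4.3.3 and were used for scaling only. The computations were tested on simulated data. The 10 genes and all lists were chosen with earlier results of these data known. All 10 are named, and from the list of other decay genes those past 1.5-fold in the share left, at most 3 a direction, *Cnot9* being added after its values were seen, as was the 45% GC threshold.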

Additional observations from a re-analysis of the deposited data

Results flagged for a closer look

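*Cnot7* and *Cnot6* moved in opposite directions in the 2 genotypes after 8 h of actinomycin D. *Cnot7* had 42.9% of its 0 h FPKM left in WT and 120% in R255K cells, and *Cnot6* had 71.8% and 138%. The difference was not tested, since each genotype had 1 library per time. Under TMM factors the shares were 63.2% and 131% for *Cnot7*, still in opposite directions, and 106% and 151% for *Cnot6*, in the same direction. Under scaling to *Gapdh* all 4 shares were below 100%, from 14.4 to 29.3%. Both genes are among the poorest in GC of those tested, at 39.5% and 39.1%.

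The WT list also held 2 peaks in introns of *Cnot4*, which the comparison of exonic peaks does not use. They lay at chr6:35103940-35104213 and chr6:35036953-35037380 with fold enrichments of 7.09 and 5.70 and −log10 q of 8.73 and 5.92, and no R255K peak overlapped either.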

How the results depend on the processing

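No paired analysis was possible because the time course has 1 library per genotype and time and the peak lists pool the numbered MeRIP-seq libraries of a genotype.

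Leaving out a replicate was likewise not possible. Shares over all genes stand in brackets. At 0 h, 3 genes were lower with DESeq2 size factors (18.2%) and 3 when scaled to the 86 ribosomal protein genes (20.9%), where the median log2 ratio was −0.45. With the GC trend removed, 0 were lower (11.6%), 1 was higher (15.1%) and the median was 0.081. For the share left at 8 h, TMM factors gave 4 higher (32.5%), 2 lower (27.0%) and a median log2 difference of 0.40, and DESeq2 size factors gave 4 (30.6%), 2 (30.5%) and 0.32. Scaling to ribosomal protein genes gave a median of 1.33, and scaling to *Gapdh* gave 3 higher (26.6%), 2 lower (37.1%) and a median of 0.17. The medians over all genes under these 4 scalings were −0.01, −0.08, 0.93 and −0.24. From 0 to 4 h, 4 genes were higher (31.9%) with a median of 0.49, and from 4 to 8 h 3 (26.9%) with a median of 0.47. With the GC trend removed 5 were higher (44.0%) and the median was 0.42. *Gapdh* scaling reversed *Cnot1* (−0.029) and *Cnot11* (−0.058).

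For half-lives, ratios over 1.5 numbered 6 of 7 when scaled to ribosomal protein genes (81.4%), 0 of 5 when scaled to *Gapdh* (2.29%) and 5 of 7 from 8 h alone (75.5%). Ratios under 1/1.5 numbered 0 with TMM factors (9.06%), DESeq2 size factors (8.54%), ribosomal protein genes (3.45%) and 4 h alone (8.93%), and 3 with *Gapdh* (62.6%). *Cnot3* reversed to 1.15 with ribosomal protein genes and *Cnot8* to 0.339 with *Gapdh*, a scaling under which the WT share of *Cnot8* was 174% at 4 h. Among WT peaks enriched at least 4-fold, 1 of 2 was lost (51.0%). The causes were not tested. The pseudocount of 0.1 FPKM, the absence of a filter, a coverage of 50%, a −log10 q of at least 5 and summits in exons left the summary counts within 1.5 times the values given. Depth limits *Cnot6l* most, with 7 counts in WT at 8 h.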
